A study of Mus musculus with 9 samples.

Results

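The expression of 10 plasma membrane amino acid transporter genes was followed in mouse cytotoxic T lymphocytes treated with inhibitors of the mTOR kinase: Slc3a2, Slc7a5, Slc7a6, Slc7a11, Slc7a1, Slc7a3, Slc1a4, Slc1a5, Slc38a1 and Slc38a2. Every probe set that the array annotation gives to 1 of these 10 gene symbols was taken, which gave 20 of the 45037 probe sets other than controls and 10 of 18194 genes. Of the 10 genes, 9 passed the floor on low signals and were tested, with 17 of the 20 probe sets. The cells came from spleens of mice of the P14-TCR strain, labelled wild type, whose transgenic T cell receptor recognises the viral peptide gp33-41. All cultures, controls included, were activated for 48 h with that peptide, IL-2 and IL-12 and then grown for 96 h more with both cytokines, to day 6. For the last 48 h the medium held rapamycin (20 nM), KU-0063794 (1 uM) or, in controls, the solvent DMSO. Each group had 3 arrays from 3 spleens, and the same 3 spleens served all groups, so array 1, 2 or 3 of a group marks the spleen. P14 cells carry a transgenic receptor, and each inhibitor was used at a single dose and time.

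Amino acid transporters of the plasma membrane supply growing T cells with the building blocks of protein, and their genes are known to rise when T cells are activated. Slc3a2 encodes the CD98 heavy chain, which carries light chains such as Slc7a5 (LAT1, an exchanger of large neutral amino acids) to the cell surface. Leucine and arginine are read by sensor proteins that control the recruitment of mTOR complex 1 (mTORC1) to the lysosome, where it is switched on, and mTORC1 in turn promotes translation of ATF4, a transcription factor that drives many transporter and amino acid synthesis genes. Rapamycin binds FKBP12 and inhibits mainly mTORC1, whereas KU-0063794 blocks the kinase site and so inhibits both mTOR complexes.

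Values are log2 signals of a probe set, so a difference of 1 is a doubling. Array medians lay between 0.47 and 0.53, 27.0% to 27.6% of probe sets per array exceeded the background level, and signals of any 2 arrays correlated over probe sets with r between 0.987 and 0.996. The background level, 1.71 log2, is the 95th percentile of 35 genes restricted to other tissues, of which Mbp (4.39) and Pomc (2.26) lay above it. Of 13 genes of the CD8 T cell marker list with a probe set, 12 were above background and Tcra was below it. Defining markers of other cells were mostly below it: 1 of 8 B cell genes (Ighm), 2 of 5 CD4 T cell genes (Tnfrsf4 and Zbtb7b, not Cd4), 1 of 13 myeloid genes (Csf1r), 1 of 4 NK cell genes (Klrc1) and 0 of 8 erythroid or stromal genes were above background. The excess of 3' over 5' signal for actin, a gauge of RNA integrity, ranged from 0.49 to 0.65 on DMSO arrays, from 0.62 to 0.72 on rapamycin arrays and from 0.65 to 0.70 on KU-0063794 arrays. In every spleen it was larger with either inhibitor than with DMSO. The same measure for Gapdh moved the other way in every spleen, from -0.21 to 0.036 with DMSO, -0.25 to -0.027 with rapamycin and -0.22 to -0.026 with KU-0063794. The signal of the B1 repeat control was also lower in every spleen, at 7.96 to 8.65 with DMSO, 6.75 to 7.52 with rapamycin and 7.09 to 7.75 with KU-0063794. The part of these 3 measures in the results on the transporters was not tested.

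Slc7a3 and Slc1a5 were lower with each inhibitor, and 0 of the 9 tested passed as higher without the spleen in the model, against 2.65% of all genes with rapamycin and 2.28% with KU-0063794. Slc7a3, a cationic amino acid transporter, was 5.64-fold lower with rapamycin and 3.44-fold lower with KU-0063794, and Slc1a5, the glutamine carrier ASCT2, was 1.44-fold and 1.41-fold lower. Slc7a3 lay above background on only 1 of 3 rapamycin arrays, and with lower values raised to the background level it was 4.66-fold lower. With rapamycin, 2 of the 9 genes tested passed, against 4.44% of all 13278 genes tested in either direction and 1.79% as lower. With KU-0063794, the same 2 of 9 passed, against 4.07% of all genes in either direction and 1.78% as lower. These calls are from limma over all 9 arrays at an adjusted p under 0.05, without a term for the spleen. Above background were 8 of the 9 and 7452 of all 13278 genes, so the shares over all genes include many with signals near background. In a fit of only those 7452 genes, 300 passed as lower and 418 as higher with rapamycin, and 293 and 404 with KU-0063794. With the spleen as a block, 5 of 9 passed with rapamycin, all lower (Slc3a2, Slc7a5, Slc7a3, Slc1a4 and Slc1a5), against 11.8% of all genes in either direction, 5.52% lower and 6.24% higher. Of these, Slc1a4 was above background only on DMSO array 1. With the block and KU-0063794, 4 passed as lower (Slc3a2, Slc7a5, Slc7a3 and Slc1a5) and Slc7a6 as higher, against 12.4% of all genes in either direction, 5.86% lower and 6.52% higher. Counted over probe sets, 2 of 17 passed with each inhibitor, against 3.04% of 22947 with rapamycin and 2.7% with KU-0063794, and 5 with the block, against 8.75% and 9.13%.

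All 3 inhibitor arrays lay below all 3 DMSO arrays for 5 of 9 genes with rapamycin, against 9.69% of all genes tested, and for 5 of 9 with KU-0063794, against 9.29%. By the brightest probe set, 0 of 9 had all inhibitor arrays above all DMSO arrays in either contrast, against 9.38% of all genes with rapamycin and 11% with KU-0063794. Compared within spleens, 6 of 9 were lower in all 3 spleens with each inhibitor, against 21.4% of all genes with rapamycin and 19.3% with KU-0063794. Higher in all 3 were 0 with rapamycin, against 19.7%, and 3 with KU-0063794, against 22.1%. The median log2 fold change of the 9 was -0.40 with rapamycin and -0.32 with KU-0063794, beside a median over all genes of -0.00 and 0.01. The KU-0063794 median is the value of Slc1a4, whose signals lay almost wholly below background. Slc1a4 is also among the 5 genes without overlap and the 6 lower in all 3 spleens with each inhibitor. The 2 contrasts share the DMSO arrays, so their likeness is no separate evidence. In such bulk RNA, fewer cells of a type and less RNA per cell cannot be told apart.

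**Figure D1:**
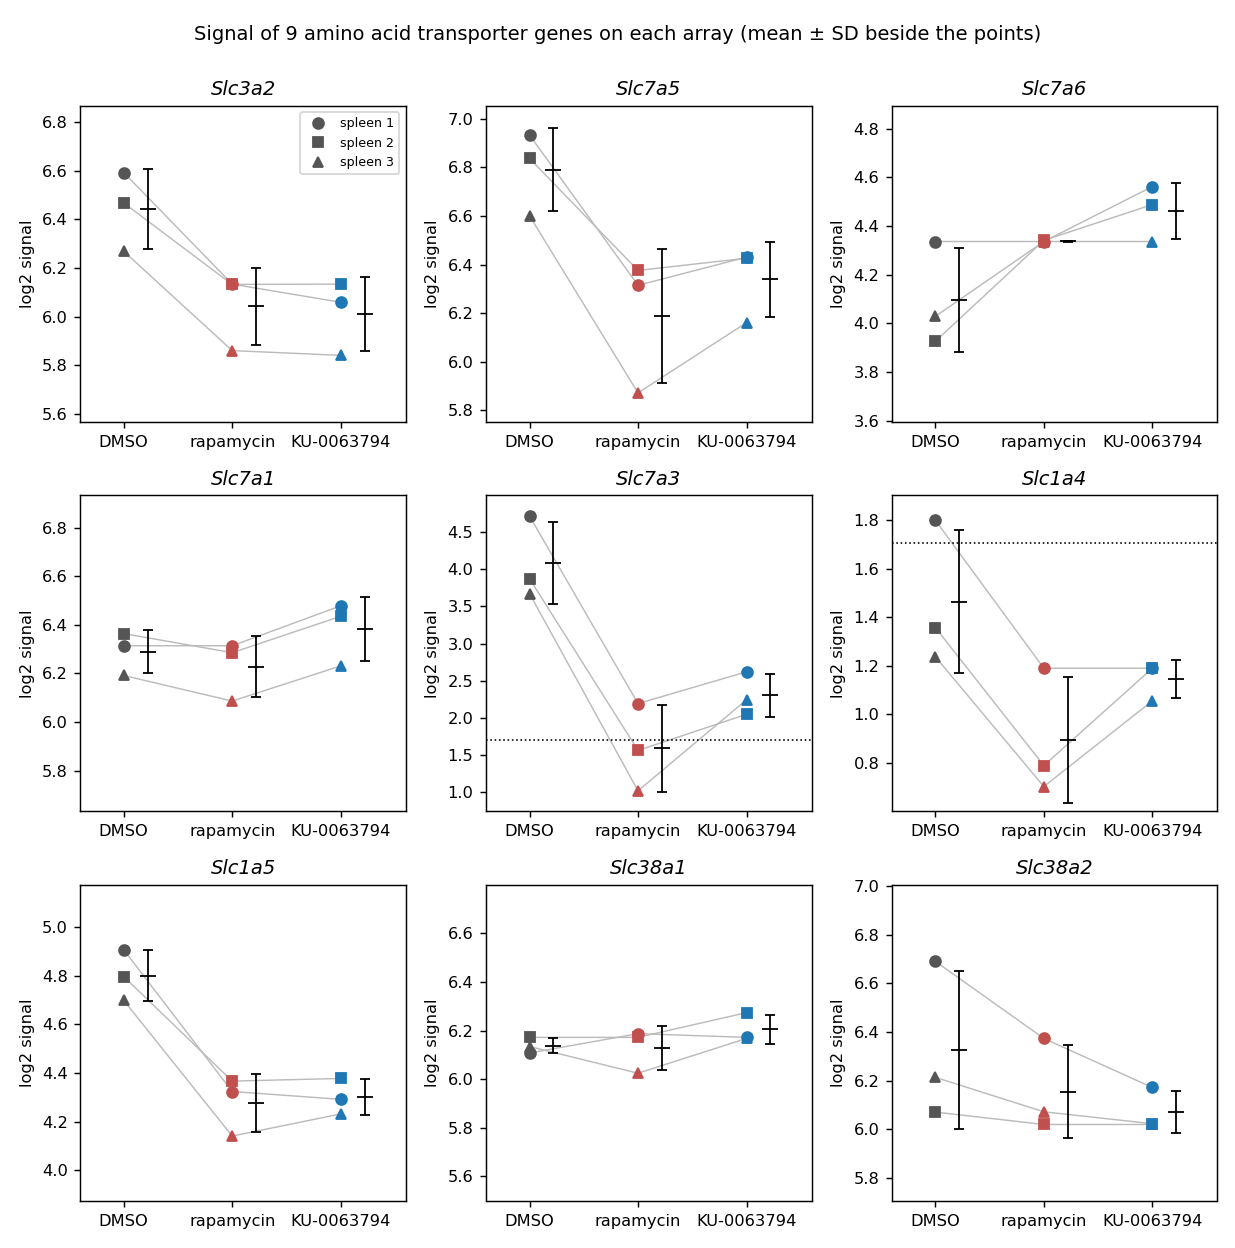
Log2 signal (vertical axis) of the 9 transporter genes tested on each of the 9 arrays, with marker shapes and grey lines for the spleen, and the mean ± SD of each group of 3 beside the points. The vertical ranges differ between panels, and the dotted line is the background level of 1.71. Slc7a3 spans the widest range, from 3.67 to 4.72 in DMSO cultures down to 1.02 to 2.19 with rapamycin.

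The cationic amino acid transporters Slc7a1 (CAT1) and Slc7a3 (CAT3) both bring arginine and lysine into cells, and only Slc7a3 passed the test. Slc7a3 read 4.72, 3.87 and 3.67 on the 3 DMSO arrays, 2.19, 1.56 and 1.02 with rapamycin, and 2.62, 2.05 and 2.25 with KU-0063794. All 6 inhibitor arrays lay below the lowest DMSO array, with more than a log2 unit between them. The group means were 4.09 ± 0.55 (SD, n = 3), 1.59 ± 0.59 and 2.31 ± 0.29. The log2 fold change was -2.49 with rapamycin (SE 0.33, 95% interval -3.24 to -1.75, limma adjusted p = 0.00806) and -1.78 with KU-0063794 (SE 0.33, interval -2.52 to -1.04, adjusted p = 0.0209). Within spleens 1, 2 and 3 the fall was much the same with rapamycin, by differences of -2.52, -2.31 and -2.65, and ranged more with KU-0063794, by -2.10, -1.82 and -1.43. The signal remained above background on all 3 KU-0063794 arrays but on 1 of 3 rapamycin arrays, so the size of the rapamycin change rests on signals near background. With values under the background level raised to it, the rapamycin log2 fold change was -2.22. The KU-0063794 call was lost without DMSO array 1 (log2 fold change -1.47, limma adjusted p = 0.0683) or without KU-0063794 array 1, 2 or 3 (-1.94, -1.65 and -1.75, adjusted p = 0.0567, 0.0851 and 0.0758). With the spleen as a block, both Slc7a3 calls were kept without each of the 9 arrays.

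Slc7a1 read 6.31, 6.36 and 6.19 in DMSO, 6.31, 6.29 and 6.09 with rapamycin and 6.48, 6.43 and 6.23 with KU-0063794. The 3 groups overlapped. Its log2 fold changes were -0.06 (95% interval -0.28 to 0.16, limma adjusted p = 0.810) and 0.09 (interval -0.13 to 0.32, adjusted p = 0.705), intervals that do not reach a fall of the size seen for Slc7a3. A second Slc7a1 probe set read lower in all 3 spleens with both inhibitors, by log2 fold changes of -0.24 and -0.15 that did not pass. The third was below the floor.

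Slc1a5 (ASCT2) and Slc1a4 (ASCT1) exchange small neutral amino acids, and Slc1a5 carries glutamine into activated T cells. Slc1a5 read 4.91, 4.80 and 4.70 in DMSO, 4.32, 4.37 and 4.14 with rapamycin and 4.29, 4.38 and 4.23 with KU-0063794. Every inhibitor array was below every DMSO array, and the inhibitor groups overlapped each other. The means were 4.80 ± 0.10 (SD, n = 3), 4.28 ± 0.12 and 4.30 ± 0.07, and the log2 fold changes -0.52 (SE 0.09, limma adjusted p = 0.0165) and -0.50 (SE 0.09, adjusted p = 0.0205). The 95% intervals were -0.73 to -0.32 with rapamycin and -0.71 to -0.29 with KU-0063794. A second Slc1a5 probe set, below background on every array, had log2 fold changes of -0.29 and 0.13, so it went the other way with KU-0063794. Averaging both probe sets ended both calls, with limma adjusted p = 0.0773 and 0.435, and with the block it ended that with KU-0063794 (0.143). The rapamycin call was lost without DMSO array 1 (-0.47, adjusted p = 0.0639) or rapamycin array 3 (-0.46, 0.0585). The KU-0063794 call was lost without DMSO array 1 (-0.45, 0.0806) or KU-0063794 array 1, 2 or 3 (-0.50, -0.54 and -0.47, adjusted p = 0.0733, 0.0612 and 0.0767). With the block both calls were kept without each array.

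Slc1a4 was at the edge of detection. Its brightest probe set read 1.80, 1.36 and 1.24 in DMSO, 1.19, 0.79 and 0.70 with rapamycin and 1.19, 1.19 and 1.06 with KU-0063794. Only DMSO array 1 was above background, though all 6 inhibitor arrays lay below all DMSO arrays. The log2 fold change was -0.57 with rapamycin (limma adjusted p = 0.0937 without and 0.0117 with the block) and -0.32 with KU-0063794 (0.347 without and 0.0836 with it). With the block, the rapamycin call was lost without DMSO array 1, rapamycin array 2 or rapamycin array 3, at an adjusted p of at most 0.0593. These differences lie almost wholly below background, so they and the ranks taken from them are not a measure of the size of a change. With values raised to the background level the difference was -0.03 with each inhibitor. The other 2 Slc1a4 probe sets also read lower in all 3 spleens with both inhibitors without passing.

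The CD98 heavy chain and its partner LAT1 were lower with both inhibitors by similar amounts, and these differences passed when the spleen was a block but not without it. Slc3a2 read 6.59, 6.47 and 6.27 in DMSO, 6.13, 6.13 and 5.86 with rapamycin and 6.06, 6.13 and 5.84 with KU-0063794. Its groups did not overlap with DMSO, and spleen 3 gave the lowest array in every group. Slc3a2 means were 6.44 ± 0.16 (SD, n = 3), 6.04 ± 0.16 and 6.01 ± 0.15. The log2 fold changes were -0.40 (SE 0.12, limma adjusted p = 0.108 without and 0.0105 with the block) and -0.43 (SE 0.12, 0.0893 without and 0.00758 with it). With the block, the rapamycin call was lost without DMSO array 1 or rapamycin array 1, where adjusted p rose to at most 0.0533.

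Slc7a5 read 6.93, 6.84 and 6.60 in DMSO, 6.31, 6.38 and 5.87 with rapamycin and 6.43, 6.43 and 6.16 with KU-0063794. Again no inhibitor array reached the lowest DMSO array, and spleen 3 was lowest in each group. The means were 6.79 ± 0.17 (SD, n = 3), 6.19 ± 0.27 and 6.34 ± 0.15. The log2 fold change was -0.60 with rapamycin (SE 0.15, limma adjusted p = 0.0560 without and 0.00396 with the block) and -0.45 with KU-0063794 (SE 0.15, 0.139 without and 0.00947 with it). With the block the rapamycin call was kept without each of the 9 arrays, and the KU-0063794 call in 7 of 9, the exceptions being without DMSO array 1 or KU-0063794 array 1 (adjusted p up to 0.0559). The single probe set of each of these 2 genes gives no second measurement on the array.

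Slc7a6 (y+LAT2), a CD98 light chain that exchanges cationic for neutral amino acids, ran the other way. It read 4.34, 3.93 and 4.03 in DMSO, 4.34 on all 3 rapamycin arrays, and 4.56, 4.49 and 4.34 with KU-0063794. The groups overlapped, because DMSO array 1 equalled 2 rapamycin arrays and KU-0063794 array 3 to the last deposited digit. Such ties are common in these values: 66.7% of all genes tested, and 6 of the 9 transporters, had at least 2 arrays with identical values, so the small SD of 0.0026 with rapamycin is no measure of biological spread. The log2 fold changes were 0.24 (limma adjusted p = 0.299 without and 0.157 with the block) and 0.37 (0.111 without and 0.0442 with it). With the block, the KU-0063794 call was kept without DMSO array 1 or rapamycin array 1 and lost without any of the other 7 arrays, at an adjusted p of at most 0.163. A second Slc7a6 probe set read higher on every inhibitor array than on any DMSO array, at 3.04, 2.82 and 3.11 in DMSO, 3.22, 3.21 and 3.38 with rapamycin and 3.29, 3.16 and 3.70 with KU-0063794. Its log2 fold changes were 0.28 and 0.39, with limma adjusted p over probe sets of 0.386 and 0.203 without and 0.114 and 0.0386 with the block.

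Slc7a11 (xCT), the CD98 light chain that imports cystine in exchange for glutamate, was below background on every array. Its brighter probe set read 0.42, 0.20 and 0.25 in DMSO, 0.20, 0.30 and 0.21 with rapamycin and 0.01, 0.20 and 0.18 with KU-0063794. The other read between -0.13 and 0.17. Both lay under the floor of 0.31 log2 in their mean, so no change could be measured for this gene.

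The sodium-coupled neutral amino acid transporters Slc38a1 (SNAT1) and Slc38a2 (SNAT2), which also carry glutamine, did not pass in either fit. Slc38a1 read 6.11, 6.17 and 6.13 in DMSO, 6.19, 6.17 and 6.02 with rapamycin and 6.17, 6.27 and 6.17 with KU-0063794. These are among the tightest readings of the 10 genes, and the groups overlapped. The log2 fold changes were -0.01 (95% interval -0.18 to 0.16) and 0.07 (interval -0.11 to 0.24), with limma adjusted p = 0.968 and 0.727. Both are close enough to 0 that their sign turned when the 2 probe sets were averaged, to 0.02 and -0.0056.

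Slc38a2 read 6.69, 6.07 and 6.21 in DMSO, 6.37, 6.02 and 6.07 with rapamycin and 6.17, 6.02 and 6.02 with KU-0063794. It was lower in all 3 spleens with both inhibitors, most in spleen 1, whose DMSO array was the highest, and the groups overlapped. The log2 fold changes of -0.17 and -0.25 had 95% intervals of -0.53 to 0.19 and -0.61 to 0.10 (limma adjusted p = 0.647 and 0.455). Another 2 probe sets of Slc38a2 gave 0.17 and 0.06 with rapamycin and -0.04 and 0.11 with KU-0063794, none passing, so the probe sets did not share a direction.

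**Figure D2:**
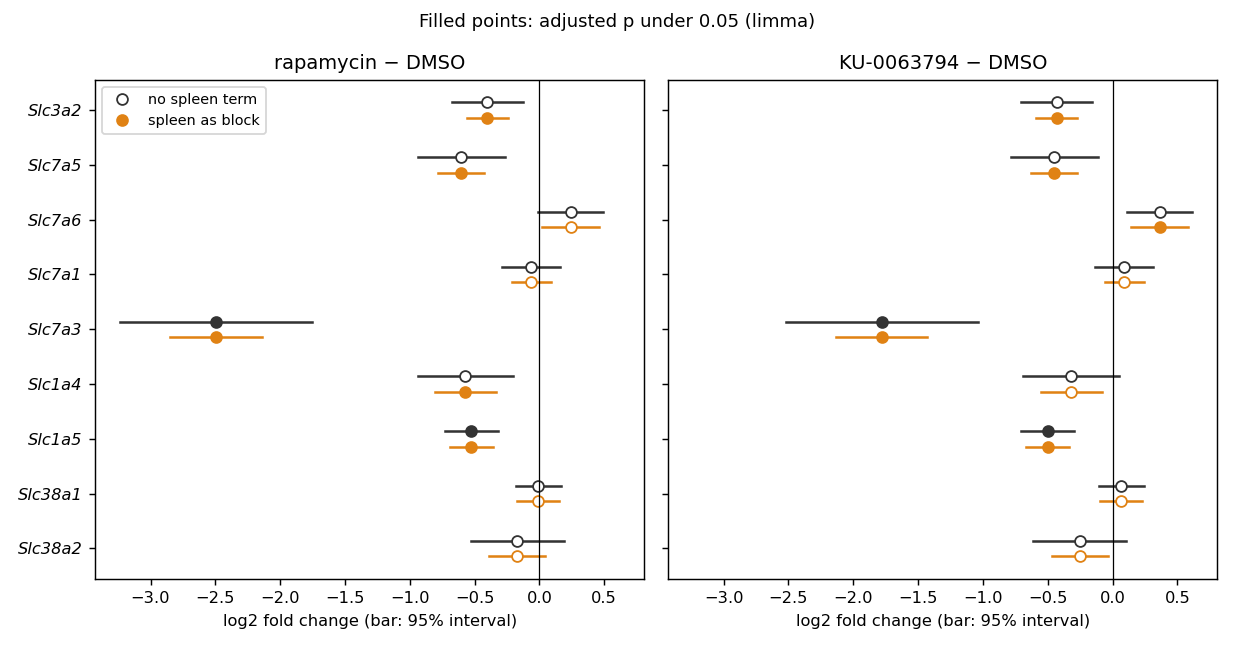
Log2 fold changes of the 9 genes against DMSO with 95% intervals (horizontal axis), from limma without a spleen term (grey) and with the spleen as a block (orange). Filled points have an adjusted p under 0.05. Without the spleen term Slc7a3 and Slc1a5 are filled in both panels, and the block narrows the intervals and adds Slc3a2 and Slc7a5 in both.

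The comparison of the inhibitors with each other asks whether blocking the kinase did more or less than rapamycin at these doses. Of the 9 transporters, 0 passed in KU-0063794 against rapamycin, against 0% of all genes tested in limma with or without the spleen block. In 0 of the 9 did the arrays of the inhibitors stand apart without overlap, against 3.3% of all genes as lower and 4.87% as higher with KU-0063794. At an unadjusted p under 0.05 there were 629 genes (4.74%), with 0 transporters among them. With the block there were 1329 genes (10%), with 3 transporters among them, Slc7a3, Slc7a1 and Slc1a4. Of these, Slc1a4 was below background on every inhibitor array. Slc7a3 was higher with KU-0063794 than with rapamycin in all 3 spleens, by a log2 difference of 0.71 (95% interval -0.03 to 1.45, limma adjusted p = 0.933 without and 0.328 with the block). Only 1 of 3 rapamycin arrays was above background for Slc7a3, so the size of this difference rests on signals near background. With values raised to the background level, its log2 fold changes against DMSO were -2.22 with rapamycin and -1.78 with KU-0063794. For Slc7a5 the difference was 0.15 (interval -0.18 to 0.49) and for Slc7a1 0.15 (interval -0.07 to 0.38), both higher in all 3 spleens. Slc7a3, Slc7a5 and Slc7a1, 3 of 9, stand against 16.3% of all genes that were higher in all spleens. Lower in all spleens were 13.3% of all genes and 0 transporters. For Slc1a5 it was 0.02 (interval -0.18 to 0.23) and for Slc3a2 -0.03 (interval -0.30 to 0.24). These intervals still allow moderate differences, so the inhibitors are not shown to act alike.

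Among all solute carriers on the array, Slc7a3 had the lowest log2 fold change of 242 tested Slc genes with both inhibitors. Over all 13278 genes it ranked 6 from the lowest with rapamycin and 12 with KU-0063794. In the same order of Slc genes, Slc7a5, Slc1a4, Slc1a5 and Slc3a2 ranked 9, 10, 11 and 28 with rapamycin and 17, 30, 12 and 18 with KU-0063794, whereas Slc7a6 stood near the top at 224 and 236. The ranks of Slc1a4 rest on signals at or below background in both inhibitor groups. Of the 233 Slc genes other than these transporters, 5 passed as lower and 2 as higher with rapamycin, and 3 as lower and 1 as higher with KU-0063794. The median log2 fold changes of the 233 were -0.05 and -0.02. With the block 15 were lower with each inhibitor, and 6 were higher with rapamycin and 7 with KU-0063794. Without the block, those lower with both were Slc12a4, a potassium chloride cotransporter (-0.63 and -0.77, 1 of 3 KU-0063794 arrays above background), Slc25a20, the mitochondrial carnitine carrier (-0.49 and -0.59), and Slc6a6, the taurine transporter (-0.47 and -0.52).

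**Figure D3:**
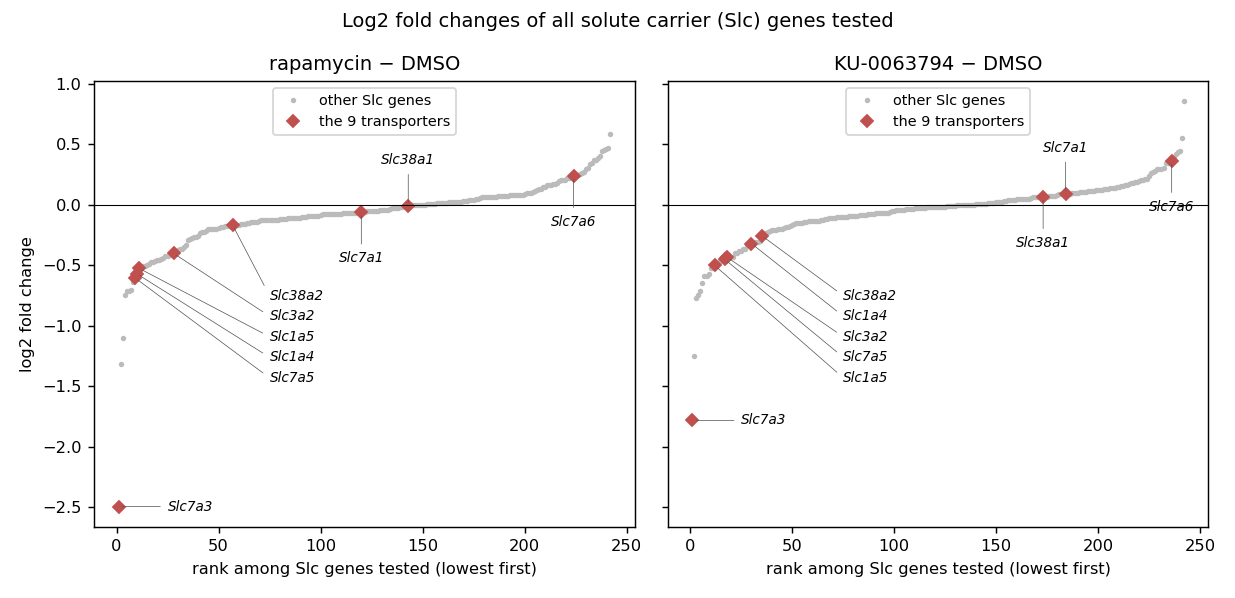
Log2 fold change (vertical axis) of all 242 Slc genes tested, ordered from lowest to highest (horizontal axis, rank), for rapamycin and KU-0063794 against DMSO. Red diamonds are the 9 transporters: Slc7a3 stands alone at the low end of each panel, and Slc7a6 lies near the high end.

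By the distance between centred profiles over the 9 arrays, the tested genes above background nearest to Slc7a3 were Scd1, a fatty acid desaturase (root mean square difference 0.42 log2), and Ifng, the gene of interferon gamma (0.48). Scd1 had log2 fold changes of -1.78 and -1.69, and Ifng of -2.62 and -2.63. Nearest to Slc1a5 were Actg1, a cytoplasmic actin (0.046), and Asah1, a ceramidase of the lysosome (0.055). Actg1 had log2 fold changes of -0.49 and -0.47, and Asah1 of -0.51 and -0.48. A gene chosen as nearest must share the direction, so this is a description.

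The other amino acid transporters of the cell gave few calls. Of 19 tested genes listed as other plasma membrane amino acid transporters, 5 were above background. Only Slc6a6 passed, lower with both inhibitors, and the medians of the 19 were -0.06 and -0.00. Of 12 lysosomal transporters, 1 passed as lower with rapamycin, Slc15a3, at a signal below background, and 0 with KU-0063794. With the block Slc15a3 passed as lower with both. None of 13 genes listed as mitochondrial amino acid carriers passed with either inhibitor in limma without the block. With the block Slc25a12, the aspartate glutamate carrier, was lower with both, by -0.50 and -0.43 (limma adjusted p = 0.00772 and 0.0126 with the block). Of 18 genes for partners and turnover of the transporters, Sgk1, a kinase activated by mTOR complex 2 and known to raise transporter amounts at the surface, was lower with both, by -0.65 and -0.69 (limma adjusted p = 0.0322 and 0.0275). With the block 2 of these 18 were lower and 1 higher with rapamycin, and 4 lower with KU-0063794. The counts of these lists without the block are small and fell to 0 without single arrays. Slc6a6 kept its call without 2 of 9 arrays with rapamycin and 5 of 9 with KU-0063794, and Sgk1 without 3 and 4, both being lost without DMSO array 1 in both contrasts. Averaging the probe sets of a gene ended the Slc6a6 call with rapamycin.

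Of the regulators of the amino acid response, Atf4 and its target Trib3 were lower with both inhibitors. Of 21 genes tested, 3 passed as lower with rapamycin and 5 with KU-0063794, with 0 higher, and the list medians were -0.18 and -0.36. Atf4 itself fell from 8.09 ± 0.16 (SD, n = 3) to 7.39 ± 0.11 and 7.53 ± 0.12, log2 fold changes of -0.70 and -0.55 (limma adjusted p = 0.0122 and 0.0259). Trib3, a pseudokinase induced by ATF4, fell by 1.20 on the log2 scale with each inhibitor (adjusted p = 0.00439 and 0.00304), and Atf5 by 0.99 and 0.91, with only 1 of 3 arrays above background in each inhibitor group (-0.78 with each when raised to the background level). Nupr1 and Ddit3 (CHOP) passed as lower with KU-0063794 and not with rapamycin. Ddit3 had -1.06 and -0.45. Nupr1 was above background on all 3 DMSO arrays and on 0 of 3 with each inhibitor, so it was at least 1.93-fold lower with KU-0063794 (limma adjusted p = 0.0396), with the same bound for rapamycin (0.0508). The difference between the inhibitors did not pass for either. Myc, a driver of transporter genes in activated T cells, read 0.48 and 0.39 higher (limma adjusted p = 0.0598 and 0.115 without, 0.00881 and 0.0175 with the block). Only its RNA was measured, and the part of MYC in the results on the transporters was not tested. With the block, 6 regulators were lower and 1 higher with rapamycin, and 9 lower and 1 higher with KU-0063794. Without single arrays the count of lower regulators ran from 2 to 4 with rapamycin and from 1 to 6 with KU-0063794, the fewest being reached in both without DMSO array 1, with rapamycin also without rapamycin array 2 or 3, and with KU-0063794 also without any KU-0063794 array. Trib3 kept its call in both contrasts without each array. Atf4 did so with rapamycin, and with KU-0063794 lost it without DMSO array 1 or any KU-0063794 array. Atf5 kept its call in 6 of 9 fits that left out an array with rapamycin, and in 2 of 9 with KU-0063794. In the KU-0063794 contrast, Ddit3 kept its call in 5 of 9 such fits and Nupr1 in 1 of 9.

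Enzymes that make or use the carried amino acids gave calls of both signs. Of 12 glutamine, glutamate and aspartate enzymes, 2 were lower and 1 higher with each inhibitor without the block. With it 3 were lower and 2 higher with rapamycin, and 4 lower and 2 higher with KU-0063794. Asns, asparagine synthetase, fell by 1.22 and 1.02 on the log2 scale (limma adjusted p = 0.00439 and 0.00693), and Gpt2, a mitochondrial alanine transaminase, also passed as lower with both. Gpt2 was above background on 2 of 3 rapamycin arrays, with -1.29 (-1.03 when raised to the background level), and on 0 of 3 KU-0063794 arrays, where it was at least 2.17-fold lower. Glul, glutamine synthetase, rose by 0.57 and 0.56 (adjusted p = 0.0182 and 0.0209), while Slc1a5 was lower in the same cultures. With the mean over the probe sets of a gene, the Glul call with rapamycin was lost. Of 12 arginine and polyamine enzymes, 3 were lower with each inhibitor with or without the block, and with it 1 was higher with KU-0063794. Smox, spermine oxidase, fell by 1.83 and 1.51, Asl, argininosuccinate lyase, by 1.03 (1 of 3 rapamycin arrays above background) and 0.83, and Sat1, which acetylates spermidine and spermine, by 0.66 and 0.82. Odc1, which makes putrescine from ornithine, had log2 fold changes of -0.03 and -0.21 and did not pass. Over single arrays left out and other fits, filters, scalings and probe set choices, the Smox log2 fold change was as small as -0.99 with rapamycin and -0.85 with KU-0063794. Asns and Smox kept their calls in both contrasts without each of the 9 arrays. The other enzymes named here lost theirs without at least 1 array, most often DMSO array 1 or an array of the inhibitor tested, and each list's count of lower genes then fell to as few as 1.

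Of 14 branched chain amino acid enzymes, Bcat1, the cytosolic transaminase that acts on leucine, was lower with both inhibitors, by -0.87 and -0.55 (limma adjusted p = 0.00639 and 0.0221). With rapamycin Dbt was also lower (-0.70, 1 of 3 rapamycin arrays above background) and Bckdha higher (0.81), both subunits of the branched chain ketoacid dehydrogenase. With the block 2 of the 14 were lower with each inhibitor and 1 higher with rapamycin. Of 11 serine and glycine enzymes, 3 were lower with rapamycin and 2 with KU-0063794 without the block. With it 5 were lower with rapamycin, and 4 lower and 1 higher with KU-0063794. Psph fell by 1.23 and 0.99 and Psat1 by 0.44 and 0.37, while Phgdh fell by 0.41 with rapamycin and had -0.25 with KU-0063794 (limma adjusted p = 0.0872 without and 0.0402 with the block). Psph kept its call without each array in both contrasts, and Bcat1 and Bckdha did with rapamycin. Averaging the probe sets of a gene ended the Bcat1 call with KU-0063794. None of 9 cystine and glutathione enzymes passed with either inhibitor without the block. With it 1 of the 9 was higher and 1 lower with KU-0063794, and 0 passed with rapamycin. Gclm, a subunit of the glutathione synthesis enzyme, had -0.12 and -0.02.

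Of 30 genes by which mTORC1 senses amino acids, 0 passed with rapamycin and 2 with KU-0063794 without the block, both sestrins and both lower: Sesn3 (-1.12) and Sesn1 (-0.67). With rapamycin these had -0.73 and -0.57 (limma adjusted p = 0.118 and 0.0680 without, 0.0118 and 0.0115 with the block). Sesn2, the leucine sensor, had -0.51 and -0.45 and passed with the block (adjusted p = 0.0107 and 0.0162) and not without it. Without DMSO array 1, none of these genes passed as lower with KU-0063794 in the fit without the block. Averaging the probe sets of a gene ended the Sesn1 call with KU-0063794. With the block 5 of the 30 were lower with rapamycin, and 4 lower and 1 higher with KU-0063794. The list medians were -0.07 and -0.10.

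**Figure D4:**
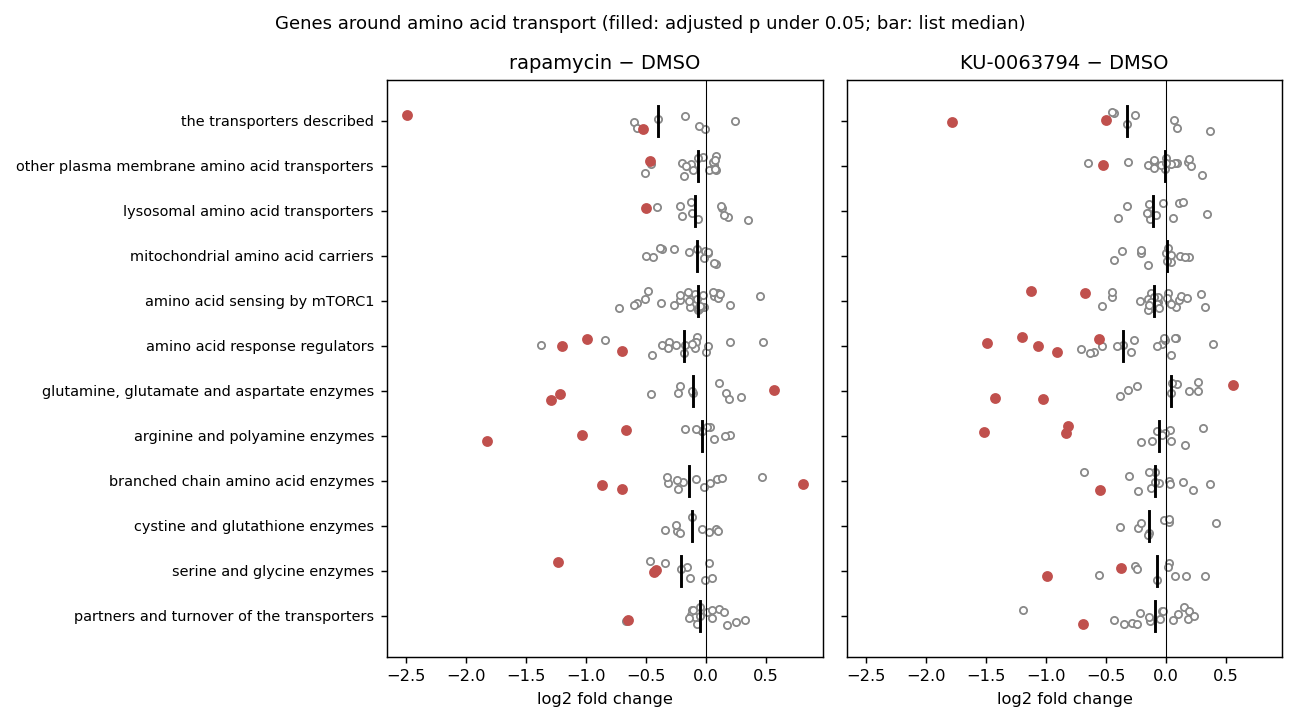
Log2 fold changes (horizontal axis) of the genes tested in each list, one row per list, with filled red points for an adjusted p under 0.05 (limma, no spleen term) and a black bar at the list median. The vertical scatter within a row only separates points. Among the lists plotted, the transporters described have medians of -0.40 and -0.32, and Slc7a3 is the leftmost red point of each panel. The median of -0.32 is the value of Slc1a4, whose signals lay almost wholly below background.

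Promoter windows from RefSeq (GRCm38.p6, from 250 bases before to 50 after a transcript start) were read for 6 of the 10 genes, namely Slc3a2, Slc7a6, Slc7a11, Slc7a1, Slc1a4 and Slc38a2. No window was available for Slc7a3, Slc1a5, Slc7a5 and Slc38a1. Slc7a3 and Slc1a5, which passed without the block, were thus not searched, nor was any sequence outside the windows. They were searched on both strands for the C/EBP-ATF response element, TGATGNAA, to which ATF4 binds with a C/EBP partner, and for the E-box CACGTG, bound by MYC, and TGACNNNGC, the core of the antioxidant response element. The C/EBP-ATF element stood in 2 of the 6 genes, Slc7a11 and Slc1a4, against 4.51% of 27025 genes. Slc7a11 held it at positions -66 to -59 and, on the other strand, -47 to -40 from the start, and Slc1a4 at -4 to 4 on the other strand. CACGTG was in 0 of the 6, against 8.09% of genes. TGACNNNGC was in Slc7a6, Slc7a1 and Slc38a2, 3 of the 6, against 14% of genes. In Slc7a1 it lay at -11 to -3 on the other strand, in a stretch not shown. Stretches of 60 bases from 5 genes, read in the direction of transcription with any element in capitals, show where the others lie. Slc3a2, which was lower with the spleen block, is shown beside them as its window holds none of the 3.
Slc7a11 chr3:50443637-50443696, minus strand: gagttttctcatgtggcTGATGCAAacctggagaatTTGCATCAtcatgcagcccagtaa
Slc1a4 chr11:20332710-20332769, minus strand: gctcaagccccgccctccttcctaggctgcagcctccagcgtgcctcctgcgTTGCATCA
Slc3a2 chr19:8713898-8713957, minus strand: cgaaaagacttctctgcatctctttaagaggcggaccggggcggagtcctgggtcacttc
Slc7a6 chr8:106168827-106168886, plus strand: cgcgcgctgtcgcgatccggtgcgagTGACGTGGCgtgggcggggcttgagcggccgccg
Slc38a2 chr15:96699729-96699788, minus strand: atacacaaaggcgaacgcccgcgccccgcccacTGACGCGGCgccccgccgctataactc
In the stretches of Slc7a11 and Slc1a4 the capitals mark the C/EBP-ATF element, and in those of Slc7a6 and Slc38a2 the antioxidant response core. Among the 6 genes searched, the 2 that hold the C/EBP-ATF element were the 2 whose signals were at or below background. Slc7a11 was unmeasured and Slc1a4 was lower with rapamycin only with the spleen block. Whether Slc7a3, Slc1a5 or Slc7a5 hold the element was not tested. A match of letters is not a measured binding site.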

How the data were processed

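Total RNA of 9 cultures was measured on Affymetrix mouse arrays, 1 array each. The deposited values are log2 signals per probe set. The authors' software was Affymetrix Expression Console 1.3.1, per the submitters' processing notes. Not given in the sources used here is how it corrected background, summarised probes and normalized arrays. The base of the logarithm was checked on 4 hybridisation controls, which rose by 0.99 per doubling of nominal concentration, against 0.69 for natural logarithms. Values were used as deposited, and the number of arrays limits their precision. The table held 45101 probe sets: 64 controls, 34945 with a single gene symbol, 932 with several and 9160 not listed in the array annotation. Only those with a single symbol were analysed. Gene identifiers of 34741 matched the RefSeq GRCm38.p6 table, and 0 symbols changed.

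The brightest probe set on average stood for a gene. A gene was tested where that mean exceeded a floor of 0.31 log2, the 40th percentile over probe sets without the controls, and 13278 genes did. Members below that floor are named but not tested. The groups were compared by limma 3.58.1 under R 4.3.3 (lmFit and eBayes, two-sided) over all 9 arrays without a spleen term, adjusted by Benjamini-Hochberg over all genes tested at 0.05. Because the arrays of a spleen are paired by the study's design, a fit with the spleen as a block is set beside it. Deviations from the group means correlated over genes in all 9 pairs of the same spleen (r 0.345 to 0.533) and r was -0.414 to -0.0791 in the 18 pairs of different spleens. The deviations of a group sum to 0, so positive values for the same spleen bring negative values for different spleens, and the latter add no evidence. Other settings were a random block, fits of the 2 groups compared, other filters, scalings and choices of probe set, trend, robust and weighted fits, and arrays or spleens left out. Figures were drawn with matplotlib 3.10.9.

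The transporters, the gene lists and the background genes were chosen with earlier results of these data known. Named beside the transporters were up to 4 genes of each list past the threshold, largest changes first, a fixed panel (Atf4, Trib3, Asns, Myc, Sesn2, Smox, Odc1, Bcat1, Gclm), and the 2 genes above background with the nearest profile to each transporter that passed. Other genes were named after their values were seen: Slc12a4, Slc25a20 and Slc25a12.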

Additional observations from a re-analysis of the deposited data

How the results depend on the processing

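The count of transporters that passed was 2 with each inhibitor. With the spleen as a replicate block it was 5 and 5, and with the spleen as a random block 5 and 5. In fits of only the 2 groups compared it was 1 with rapamycin and 0 with KU-0063794, and with the mean over the probe sets of a gene 1 and 1. Leaving out single arrays or a spleen gave 0 to 2 with each, 0 with either when a whole spleen was left out. The genes passing over the whole table were 590 with rapamycin, or 1561 with the replicate block, 1245 with the random block, 98 in the fit of 2 groups and 0 to 514 with arrays left out. With KU-0063794 they were 540, or 1644, 1291, 111 and 0 to 548. Of the transporters' probe sets, 2 passed with each inhibitor and 5 with the replicate block. With the block, leaving out an array gave 3 to 5 transporters with each inhibitor. Signs turned only for differences that did not pass in either fit. The largest of these were -0.17 for Slc38a2 with rapamycin and 0.15 for Slc7a5 in KU-0063794 against rapamycin. With the mean over probe sets, the log2 fold change of Slc38a1 was 0.015 and of Slc38a2 0.021 with rapamycin, of Slc7a1 -0.067 and of Slc38a1 -0.0056 with KU-0063794, and of Slc38a1 -0.021 between the inhibitors, and with array weights that of Slc38a1 with rapamycin was 0.0041. With arrays or a spleen left out, rapamycin against DMSO ran from -0.11 to 0.0098 for Slc7a1, from -0.055 to 0.042 for Slc38a1 and from -0.30 to 0.013 for Slc38a2, and KU-0063794 against rapamycin from -0.12 to 0.054 for Slc3a2, from -0.0059 to 0.25 for Slc7a5, from -0.045 to 0.068 for Slc1a5 and from -0.15 to 0.026 for Slc38a2. Over the 3 contrasts and all alternatives, 574 values of the transporters kept direction and side of the threshold, 27 lost the call, 16 gained it and 19 turned sign. In KU-0063794 against rapamycin, 0 transporters and 0 genes passed under every alternative run. The cause of these changes was not tested, beyond fewer arrays where arrays were left out. The background level rests partly on Mbp; without it the level is 1.43 log2, and Slc7a3 is above it on 2 of 3 rapamycin arrays.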
